A study of Homo sapiens with 12 samples.

Results

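The nuclear genes of oxidative phosphorylation were described here in cells with and without knockdown of IGF2BP1, an RNA-binding protein. Members were the protein-coding genes whose symbol starts as those of the subunits, and of some assembly factors, of the respiratory chain complexes and of ATP synthase. They were selected on their level, a mean of at least 1 FPKM (fragments per kilobase of gene length, scaled to library size) over the 6 libraries of each cell line, without regard to treatment. Of 58174 listed genes, 112 had such a symbol, 99 of them nuclear and 13 on the mitochondrial genome, and 84 nuclear genes met the minimum. The member nearest to it was NDUFA9, with means of 1.69 FPKM in Hep-G2 and 2.87 FPKM in BE(2)-C, and the nearest gene outside was NDUFA3, with 0.648 and 1.64 FPKM.

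The study asked how IGF2BP1 alters mRNA levels in cancer cells of different origin. Polyadenylated RNA was sequenced from Hep-G2, a hepatoblastoma-derived liver line, and BE(2)-C, a neuroblastoma line with amplified MYCN. Each line was transfected for 72 h with control siRNA designated by the name of a nematode microRNA (siC) or with a pool of siRNAs against IGF2BP1 (siI1). The concentration was 15 nM for Hep-G2 or 25 nM for BE(2)-C. There were 3 libraries per group and 12 in all, described as biological replicates. The deposited values corresponded to between 12852988 and 15721210 reads assigned to genes per library.

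Oxidative phosphorylation passes electrons from NADH and succinate through complexes I to IV to oxygen and uses the resulting proton gradient to make ATP in complex V. Most subunits are encoded in the nucleus, made in the cytosol and imported, and they are joined in the inner membrane with subunits made from mitochondrial DNA. Complex II has nuclear subunits only, and assembly factors help to build the complexes without remaining in them.

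The level of IGF2BP1 was 48.5, 46.6 and 50.8 FPKM with siC and 12.6, 10.7 and 10.7 FPKM with siI1 in Hep-G2. For BE(2)-C the values were 21.3, 20.6 and 21.6 FPKM with siC and 4.85, 4.75 and 4.87 FPKM with siI1. Every siI1 library lay far below every siC library of its line. The log2 change, on log2(FPKM + 0.1), was -2.10 (SE 0.08, adjusted p = 7.8e-06) in Hep-G2 and -2.11 (SE 0.05, adjusted p = 1.5e-05) in BE(2)-C by limma with Benjamini-Hochberg adjustment over all tested genes. The cell lines matched their labels: all 9 liver markers (ALB, AFP, APOA1, APOB, TTR, SERPINA1, FGB, TF and AHSG) were above 0 in every Hep-G2 library, and the neuroblastoma markers MYCN, PHOX2A, HAND2, GATA3, ISL1, DBH, TH and CHGA were above 0 in every BE(2)-C library. The liver markers summed to under 1 FPKM in each BE(2)-C library. The liver markers summed to 8625, 8631 and 8558 FPKM with siC and 14355, 16269 and 16464 FPKM with siI1 in Hep-G2, with ALB the most abundant. Of the named neuroblastoma markers MYCN was the most abundant in BE(2)-C. Of the 9 liver markers 6 rose (ALB, APOA1, TF, AHSG, SERPINA1 and FGB), while AFP fell with -0.59 (SE 0.10, adjusted p = 0.0029) and TTR with -0.77 (SE 0.13, adjusted p = 0.0029), and APOB had -0.43 (SE 0.15, adjusted p = 0.055) and did not pass (at equal sums of FPKM 3 fell). The liver markers thus did not move together, and their part in the changes of members in Hep-G2 was not tested. In such bulk RNA, fewer cells of a kind and less RNA per cell cannot be told apart.

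None of the mitochondrial genes could be compared. The 13 protein-coding genes of mitochondrial DNA, MT-ND1, MT-ND2, MT-ND3, MT-ND4, MT-ND4L, MT-ND5, MT-ND6, MT-CYB, MT-CO1, MT-CO2, MT-CO3, MT-ATP6 and MT-ATP8, were listed at 0 in all 12 libraries, as were all 37 genes placed on that genome. Of 392 nuclear copies of mitochondrial genes listed, 7 reached a mean of 1 FPKM in a line. They were singled out after their values were seen. MTATP6P1 on chromosome 1, a copy of MT-ATP6, had 1195, 1359 and 1333 FPKM with siC and 1421, 1559.8 and 1574 FPKM with siI1 in Hep-G2. Its BE(2)-C values were 2123, 2040.3 and 2064 FPKM with siC and 1936, 1769.9 and 1940.4 FPKM with siI1. Its groups did not overlap in either line, with siI1 above siC in Hep-G2 and below siC in BE(2)-C, but neither log2 change passed the test, at 0.23 (SE 0.11, adjusted p = 0.14) and -0.14 (SE 0.07, adjusted p = 0.17). The difference between these changes passed, at 0.37 (SE 0.12, adjusted p = 0.034). Over 681 aligned nt the copy and MT-ATP6 differ at 10 positions, an identity of 98.5%. Only values per gene were available, with MT-ATP6 listed at 0, so the source of these reads cannot be told here. MTND2P28 and MTCO1P12, copies of MT-ND2 and MT-CO1 with 98.4% and 98.7% identity, followed in level. In Hep-G2, MTCO1P12 rose from 148, 165 and 159 FPKM to 174, 203 and 194 FPKM with groups apart, a log2 change of 0.27 (SE 0.08, adjusted p = 0.028), and it did not pass the test in BE(2)-C at 0.01 (SE 0.09, adjusted p = 0.96). For MTND2P28 the changes were -0.10 (SE 0.08, adjusted p = 0.40) and -0.15 (SE 0.06, adjusted p = 0.089), neither past the threshold, with siI1 below siC and no overlap in BE(2)-C.

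The 84 nuclear members comprised 33 genes of complex I, 4 of complex II, 10 of complex III, 12 of complex IV, 15 of complex V and 10 assembly factors. In siC cells their group means ranged from 1.52 FPKM for NDUFA9 to 279 FPKM for ATP5B in Hep-G2, with a median of 31.9 FPKM. Those in BE(2)-C ranged from 1.67 FPKM for ATP5S to 825 FPKM for ATP5B, with a median of 54.6 FPKM. At least 74 reads lay behind every member's value in Hep-G2, and at least 61 in BE(2)-C. Summed FPKM of the members made up 1.44%, 1.55% and 1.45% of all FPKM in Hep-G2 with siC and 1.32%, 1.48% and 1.502% with siI1. These shares overlapped. Shares in BE(2)-C were 2.57%, 2.63% and 2.45% with siC and 2.25%, 2.18% and 2.21% with siI1, every siI1 library below every siC library. Below the minimum were 15 nuclear genes. COX4I2, COX6A2, COX6B2, COX7A1, COX7B2 and COX8C are tissue-restricted forms of complex IV subunits, NDUFA4L2 is a relative of NDUFA4, and NDUFA3, NDUFA7, NDUFA13 and NDUFV2 are complex I subunits. NDUFV2, a core subunit of the NADH-oxidizing module, averaged only 0.448 FPKM in Hep-G2 and 0.268 FPKM in BE(2)-C. In the current annotation other genes on the same strand cover 28.4% of its exon bases, and 32.5% of those of NDUFA7. The others were ATP5EP2, ATP5L2 and the readthrough genes ATP5J2-PTCD1 and NDUFC2-KCTD14.

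Most called members fell in BE(2)-C, while in Hep-G2 more rose than fell as deposited but not at equal sums of FPKM. In Hep-G2, 22 members rose and 10 fell at an adjusted p below 0.05, and 52 passed in neither direction. The 22 are 26.2% of the members, against 21.9% of all 19436 tested genes and 24.5% of the 8695 protein-coding genes of the same level (mean of at least 1 FPKM in both lines) that rose, so the share that rose was near that of other genes. The 10 are 11.9%, against 23% and 35.1% that fell. Canonical transcripts of the members are short, with a median of 909 nt. Of 489 other genes of the same level under 1000 nt, 42.5% rose and 12.5% fell in Hep-G2. In BE(2)-C, 37 members fell and 2 rose. The 37 are 44% of the members, against 14.8% of all 18656 tested genes and 24.2% of genes of the same level that fell. Of the 489 other short genes, 36.6% fell in BE(2)-C, closer to the share of the members. The 2 are 2.38%, against 13.3% and 15.7% that rose. Both are assembly factors: of the 74 subunits of the complexes and their close relatives, 0 rose in BE(2)-C by limma, 0 had an unadjusted p below 0.05 in that direction, and limma voom on recovered reads called 1. The median log2 change of the members was 0.16 in Hep-G2, where that of genes of the same level was -0.09, and 61 members lay above 0. The BE(2)-C median was -0.19 against -0.04, and 69 members lay below 0. Groups without overlap were common. In Hep-G2 all siI1 libraries lay below siC for 12 members and above for 25, and for 3529 and 2482 of the 8695 genes of the same level. In BE(2)-C this held for 44 and 3 members and for 2910 and 2188 genes of the same level.

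The Hep-G2 balance rested on the scaling. With libraries scaled to equal sums of FPKM, the median of genes of the same level moved from -0.09 to -0.25 and that of the members to -0.003. Then 42 members lay on each side of 0, 19 fell and 14 rose, so the median stayed above that of other genes but not above 0. With libraries centred on the median gene, 8 members fell and 34 rose. That of BE(2)-C kept its direction, with 38 lower and 2 higher at equal sums and 34 lower and 2 higher after centring. Individual libraries also mattered: the 22 risen members in Hep-G2 became 43 without siI1 replicate 1, 10 without siC replicate 1, siC replicate 3 or siI1 replicate 2, and 11 without siI1 replicate 3. The 37 fallen members of BE(2)-C became 24 without siI1 replicate 2 and 23 without siI1 replicate 3.

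**Figure D1:**
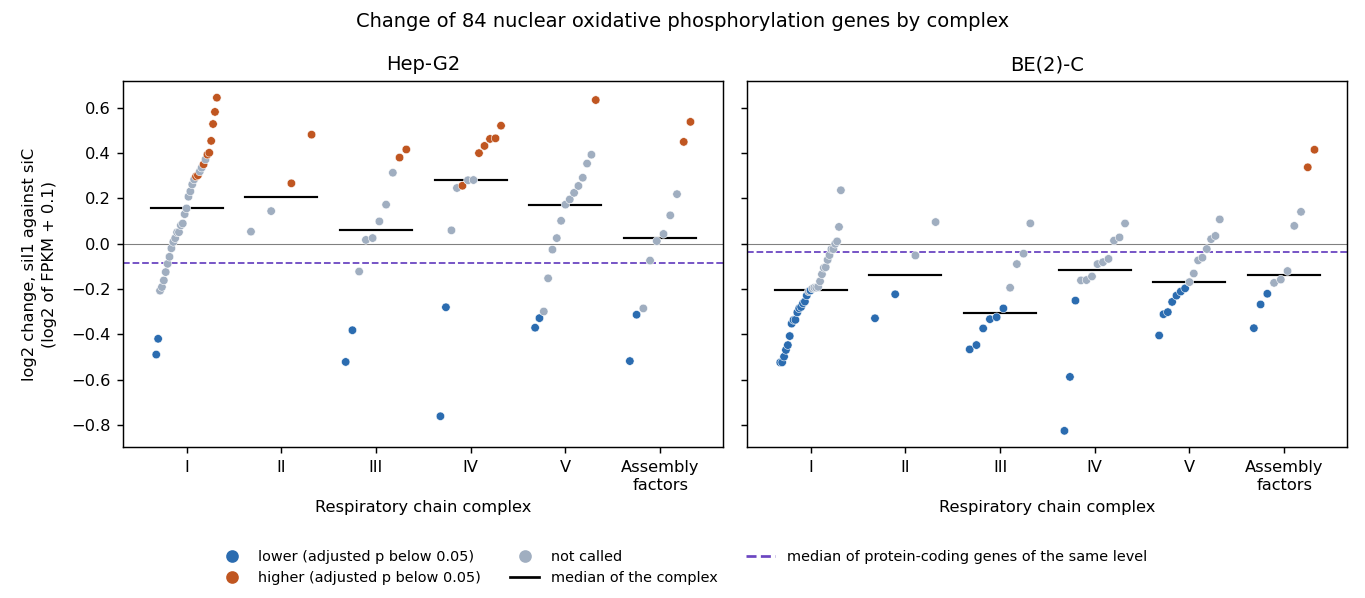
Log2 change of each nuclear member, siI1 against siC on log2(FPKM + 0.1), by complex in Hep-G2 (left) and BE(2)-C (right). Each point is a gene, coloured by the limma call at an adjusted p below 0.05, black lines are medians of a complex and the dashed line is the median of protein-coding genes of the same level, -0.09 in Hep-G2 and -0.04 in BE(2)-C; in BE(2)-C the only points called higher are assembly factors.

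Across the lines, 7 members fell in both: COX4I1 of complex IV, UQCRC2 and CYC1 of complex III, ATP5B and ATP5G3 of complex V, NDUFA12 of complex I and the assembly factor NDUFAF4. Another 11 rose in Hep-G2 and fell in BE(2)-C: SDHA, SDHB, NDUFV1, NDUFS7, NDUFS8, NDUFA2, NDUFB4, NDUFAF8, UQCRQ, COX5B and ATP5G2. No member rose in both lines or fell in Hep-G2 while rising in BE(2)-C. In the remaining classes, 11 rose in Hep-G2 only, 3 fell in Hep-G2 only (NDUFS1, COX7A2 and NDUFAF1), 19 fell and 2 rose in BE(2)-C only, and 31 passed in neither line. In these classes only means that the change in the other line did not pass its own test.

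Promoter windows are printed for the class that fell in both lines and the class that rose in Hep-G2 and fell in BE(2)-C. These classes were defined by the calls, so members of a class share their directions by construction. Shown are all 4 matched windows of the class that fell in both lines, and in the other class the 4 of members whose library values are given. RefSeq windows (GRCh38.p14, 250 bases before to 50 bases after the gene start) matched 67 of the 84 members. They were searched on both strands for GCGCANGCG, the motif of NRF1, for CCGGAAG, that of GABPA and other ETS factors, and for AAGATGGCG, that of YY1. These factors are known regulators of nuclear genes for mitochondrial proteins. Of the 67 windows, 21 (31.3%) held the NRF1 motif, against 8.05% of all 27305 windows and 17.8% of those of 7247 genes of the same level. The GABPA motif was in 19 (28.4%), against 10.7% and 23.0%, and the YY1 motif in 7 (10.4%), against 1.85% and 5.11%. At least 1 of the motifs stood in 55.2% of the member windows, 39.8% of those of genes of the same level and 18.3% of all windows. It did so in 7 of the 11 windows of members that rose in Hep-G2 and fell in BE(2)-C, and in 3 of the 4 matched windows of members that fell in both lines. Both classes thus contained promoters with and without these letters. Capitals mark the motifs, positions count from 1 at the gene start with -1 just before it, and a match describes letters and not binding. Of members that fell in both lines, COX4I1 (chr16:85799445-85799744, plus strand) held the GABPA motif from 3 to 9 on the opposite strand, UQCRC2 (chr16:21953111-21953410, plus strand) held none, NDUFA12 (chr12:95003648-95003947, minus strand) held the NRF1 motif from -116 to -108, and NDUFAF4 (chr6:96897842-96898141, minus strand) held the GABPA motif from -147 to -141.
COX4I1: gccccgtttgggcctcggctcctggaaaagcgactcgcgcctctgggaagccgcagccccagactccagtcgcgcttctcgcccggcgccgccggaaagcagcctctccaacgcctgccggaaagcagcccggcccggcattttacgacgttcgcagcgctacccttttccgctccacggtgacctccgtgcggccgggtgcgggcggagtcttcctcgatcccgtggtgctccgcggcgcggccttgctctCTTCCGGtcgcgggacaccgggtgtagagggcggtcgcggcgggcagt
UQCRC2: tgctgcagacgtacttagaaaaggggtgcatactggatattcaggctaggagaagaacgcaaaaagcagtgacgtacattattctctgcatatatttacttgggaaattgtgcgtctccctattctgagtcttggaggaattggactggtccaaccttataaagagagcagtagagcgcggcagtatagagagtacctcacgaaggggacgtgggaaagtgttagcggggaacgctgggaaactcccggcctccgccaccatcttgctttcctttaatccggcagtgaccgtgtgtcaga
NDUFA12: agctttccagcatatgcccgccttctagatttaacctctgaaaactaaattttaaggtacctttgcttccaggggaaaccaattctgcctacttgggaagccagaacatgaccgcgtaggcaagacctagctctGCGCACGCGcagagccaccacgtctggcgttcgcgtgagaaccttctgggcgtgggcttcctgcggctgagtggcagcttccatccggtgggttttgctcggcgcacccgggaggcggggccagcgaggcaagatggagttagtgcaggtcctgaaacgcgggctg
NDUFAF4: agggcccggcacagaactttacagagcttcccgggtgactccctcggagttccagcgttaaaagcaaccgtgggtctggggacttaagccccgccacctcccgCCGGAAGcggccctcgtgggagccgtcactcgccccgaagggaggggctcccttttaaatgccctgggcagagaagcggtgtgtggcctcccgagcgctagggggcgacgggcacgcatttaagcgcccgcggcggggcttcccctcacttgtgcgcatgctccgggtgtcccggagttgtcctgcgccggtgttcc

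Of members that rose in Hep-G2 and fell in BE(2)-C, SDHA (chr5:218070-218369, plus strand) held 4 copies of the NRF1 motif, starting at -166, -117, -68 and -19. SDHB (chr1:17053983-17054282, minus strand) held the GABPA motif from -128 to -122 and the YY1 motif from 11 to 19. ATP5G2 (chr12:53676034-53676333, minus strand), now named ATP5MC2, held the NRF1 motif from -41 to -33 on the opposite strand. NDUFV1 (chr11:67606686-67606985, plus strand) held none of the motifs, as did 3 further members of the class (NDUFA2, NDUFAF8 and NDUFS8).
SDHA: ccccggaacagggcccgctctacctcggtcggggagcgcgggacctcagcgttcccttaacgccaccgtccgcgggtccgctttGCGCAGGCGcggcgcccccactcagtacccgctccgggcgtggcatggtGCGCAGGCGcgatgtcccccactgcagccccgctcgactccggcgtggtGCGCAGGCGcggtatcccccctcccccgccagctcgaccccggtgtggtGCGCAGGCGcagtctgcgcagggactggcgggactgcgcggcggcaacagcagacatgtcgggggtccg
SDHB: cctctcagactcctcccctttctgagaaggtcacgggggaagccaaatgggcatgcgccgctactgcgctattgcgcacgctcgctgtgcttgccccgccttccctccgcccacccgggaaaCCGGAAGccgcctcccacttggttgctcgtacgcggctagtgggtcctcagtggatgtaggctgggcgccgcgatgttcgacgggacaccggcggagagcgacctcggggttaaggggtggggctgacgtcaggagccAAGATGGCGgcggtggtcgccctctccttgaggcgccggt
ATP5G2: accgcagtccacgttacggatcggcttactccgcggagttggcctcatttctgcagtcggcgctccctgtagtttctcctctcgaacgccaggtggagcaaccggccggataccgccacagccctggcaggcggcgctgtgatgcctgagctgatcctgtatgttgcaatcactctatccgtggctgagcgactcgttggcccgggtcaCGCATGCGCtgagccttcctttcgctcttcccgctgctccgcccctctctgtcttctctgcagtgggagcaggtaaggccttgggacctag
NDUFV1: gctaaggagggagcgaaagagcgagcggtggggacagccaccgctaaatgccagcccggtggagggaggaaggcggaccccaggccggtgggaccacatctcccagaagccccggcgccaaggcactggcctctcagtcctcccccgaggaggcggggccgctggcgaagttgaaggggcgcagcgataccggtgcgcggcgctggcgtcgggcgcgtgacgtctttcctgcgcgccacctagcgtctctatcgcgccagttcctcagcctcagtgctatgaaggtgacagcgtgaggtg

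Complex I, the NADH dehydrogenase, contributed 33 members: 6 of its catalytic core and 27 supernumerary subunits. Of genes of the same level, 24.5% rose and 35.1% fell in Hep-G2 and 24.2% fell in BE(2)-C, which is the background of each complex. By limma, 9 rose (27.3%, near that background) and 2 fell in Hep-G2, with a median of 0.16. There were 16 (48.5%) that fell in BE(2)-C, with a median of -0.21. Limma voom called 1 of the 33 higher in that line. Scaled to equal sums of FPKM, Hep-G2 had 6 lower and 5 higher (median -0.01), and after median centring 2 lower and 14 higher. Of the 6 core subunits, 3 rose (2 at equal sums, 4 after centring) and 1 fell in Hep-G2, and 5 fell in BE(2)-C (4 after centring). NDUFS1, the large iron-sulfur subunit of the core, had 21.0, 19.9 and 21.7 FPKM with siC and 16.6, 13.9 and 14.1 FPKM with siI1 in Hep-G2, and 14.5, 16.1 and 15.4 and 15.1, 15.4 and 15.4 FPKM likewise in BE(2)-C. The Hep-G2 groups did not overlap, with siI1 lower, and the BE(2)-C groups overlapped. The log2 change was -0.49 (SE 0.08, adjusted p = 0.0029) in Hep-G2 and -0.0004 (SE 0.05, adjusted p = 1.00) in BE(2)-C, and the changes differed between the lines by -0.49 (SE 0.10, adjusted p = 0.0024). NDUFV1, the core subunit that binds NADH, went the other way with 24.4, 27.5 and 25.01 FPKM with siC and 34.1, 42.9 and 43.97 FPKM with siI1 in Hep-G2, and 90.3, 79.8 and 79.5 and 74.6, 67.1 and 71.0 FPKM likewise in BE(2)-C. It lay above siC in all 3 siI1 libraries of Hep-G2 and below siC in all 3 of BE(2)-C. Its log2 change was 0.64 (SE 0.11, adjusted p = 0.0027) in Hep-G2. In BE(2)-C it was -0.23 (SE 0.07, adjusted p = 0.041), where the call was lost with an adjusted p of 0.075 after median centring, 0.069 without the filter, 0.11 without a mean-variance trend, 0.068, 0.054 and 0.052 without siC replicates 1, 2 and 3 in turn and 0.13 and 0.10 without siI1 replicates 2 and 3 in turn (range 0.0019 to 0.13 over all alternatives).

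Among supernumerary subunits, NDUFA12, which sits near the NADH-oxidizing tip, had 31.7, 33.8 and 33.6 FPKM with siC and 22.5, 26.0 and 25.6 FPKM with siI1 in Hep-G2, and 49.5, 57.9 and 49.6 and 42.9, 40.9 and 38.8 FPKM likewise in BE(2)-C. Every siI1 library was below every siC library in both lines. The log2 change was -0.42 (SE 0.07, adjusted p = 0.0027) in Hep-G2 and -0.35 (SE 0.07, adjusted p = 0.013) in BE(2)-C. NDUFS4, needed for a stable NADH-oxidizing module, had 31.1, 32.9 and 29.9 FPKM with siC and 38.86, 42.0 and 43.3 FPKM with siI1 in Hep-G2, and 38.6, 42.1 and 37.9 and 37.6, 31.3 and 35.0 FPKM likewise in BE(2)-C. In Hep-G2 the siI1 libraries all exceeded siC, and in BE(2)-C they all lay below it by a smaller margin. It rose in Hep-G2 by 0.40 (SE 0.06, adjusted p = 0.0021), and the BE(2)-C change of -0.19 (SE 0.08, adjusted p = 0.10) did not pass. NDUFC1, a small membrane-arm subunit, had 21.7, 22.04 and 20.3 FPKM with siC and 26.8, 29.2 and 31.8 FPKM with siI1 in Hep-G2, and 24.5, 21.4 and 22.3 and 20.3, 19.2 and 24.1 FPKM likewise in BE(2)-C. It was higher in every siI1 library of Hep-G2, and its BE(2)-C groups overlapped. The log2 change was 0.45 (SE 0.07, adjusted p = 0.0027) in Hep-G2 and -0.11 (SE 0.09, adjusted p = 0.45) in BE(2)-C. In the current annotation 43 of the 84 members share exon bases with another gene on either strand and 23 on the same strand, and for NDUFC1 the shares are 31.5% and 12%, so part of its reads may belong to them.

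The largest complex I falls in BE(2)-C were in supernumerary subunits. NDUFB6 had 73.8, 75.6 and 71.7 FPKM with siC and 52.5, 49.6 and 51.6 FPKM with siI1 in BE(2)-C, and 28.0, 27.2 and 25.9 and 26.3, 30.3 and 29.9 in the siC and siI1 libraries of Hep-G2. In BE(2)-C the groups stood well apart, and in Hep-G2 they overlapped. Its log2 change was -0.52 (SE 0.04, adjusted p = 3.8e-04) in BE(2)-C and 0.09 (SE 0.07, adjusted p = 0.34) in Hep-G2, a difference between lines of 0.61 (SE 0.08, adjusted p = 1.5e-04). The Hep-G2 change passed with an adjusted p of 0.034 without siI1 replicate 1 (range 0.034 to 0.64 over all alternatives). NDUFB11, encoded on the X chromosome, had 177, 159 and 157 FPKM with siC and 118, 111 and 113 FPKM with siI1 in BE(2)-C, with 37.2, 45.5 and 40.0 and 31.7, 41.4 and 39.7 in Hep-G2. All BE(2)-C siI1 libraries were below siC, and the Hep-G2 groups overlapped. The change was -0.52 (SE 0.06, adjusted p = 0.0012) in BE(2)-C and -0.13 (SE 0.12, adjusted p = 0.44) in Hep-G2, where it passed with an adjusted p of 0.030 at equal sums of FPKM (range 0.030 to 0.95 over all alternatives). NDUFA6 had 39.4, 40.2 and 39.2 FPKM with siC and 30.2, 27.9 and 26.0 FPKM with siI1 in BE(2)-C, and 19.3, 19.0 and 11.9 and 12.2, 14.9 and 16.1 in Hep-G2, where siC replicate 3 stood well below the other siC libraries. The groups were apart in BE(2)-C and overlapped in Hep-G2. The change was -0.50 (SE 0.06, adjusted p = 0.0014) in BE(2)-C and -0.19 (SE 0.20, adjusted p = 0.48) in Hep-G2, and there it passed with an adjusted p of 0.045 without siC replicate 3 (range 0.045 to 0.82 over all alternatives). NDUFA9, the member nearest to the minimum, had 1.54, 1.57 and 1.45 FPKM with siC and 1.47, 1.98 and 2.14 FPKM with siI1 in Hep-G2, and 3.39, 3.03 and 2.86 and 2.58, 2.85 and 2.54 FPKM likewise in BE(2)-C, and passed in neither line, with 0.26 (SE 0.16, adjusted p = 0.24) and -0.21 (SE 0.10, adjusted p = 0.17). Its groups overlapped in Hep-G2 and just failed to do so in BE(2)-C, and the Hep-G2 change passed with an adjusted p of 0.033 without siI1 replicate 1 (range 0.033 to 0.61 over all alternatives). NDUFA3, just outside, rose in Hep-G2 from 0.286, 0.148 and 0.137 FPKM to 1.11, 0.943 and 1.27 FPKM, a log2 change of 2.08 (SE 0.27, adjusted p = 9.7e-04). Its Hep-G2 groups were apart. NDUFA3 in BE(2)-C had 0.197, 0.284 and 3.496 and 5.23, 0.257 and 0.349 FPKM, with siC replicate 3 and siI1 replicate 1 far above the rest, and the change was 0.35 (SE 1.29, adjusted p = 0.87).

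Complex II, succinate dehydrogenase, had 4 members, of which the catalytic subunits SDHA and SDHB passed the test in both lines and the membrane anchors SDHC and SDHD in neither, while 1 of the 4 rose in Hep-G2 at equal sums of FPKM and 3 after median centring. SDHA, the flavoprotein that oxidizes succinate, had 22.004, 23.6 and 23.8 FPKM with siC and 26.2, 28.8 and 28.6 FPKM with siI1 in Hep-G2, and 38.4, 34.7 and 34.7 and 29.1, 28.5 and 28.0 FPKM likewise in BE(2)-C. The siI1 libraries were all higher than siC in Hep-G2 and all lower in BE(2)-C. The log2 change was 0.27 (SE 0.06, adjusted p = 0.011) in Hep-G2 and -0.33 (SE 0.05, adjusted p = 0.0044) in BE(2)-C, a difference of 0.60 (SE 0.08, adjusted p = 1.7e-04). The Hep-G2 call was lost with an adjusted p of 0.11 at equal sums of FPKM (range 0.0027 to 0.11 over all alternatives). In the current annotation another gene on the same strand covers 21.7% of the exon bases of SDHA. The SDHA pseudogene SDHAP3 averaged 9.80 FPKM in Hep-G2 and 4.85 FPKM in BE(2)-C, and reads of the copies can be exchanged. SDHB, the iron-sulfur subunit, shares no exon with another gene in the current annotation. It had 21.4, 22.9 and 21.0 FPKM with siC and 29.0, 31.1 and 31.1 FPKM with siI1 in Hep-G2, and 25.5, 24.2 and 23.5 and 20.4, 21.0 and 21.3 FPKM likewise in BE(2)-C. Again the groups did not overlap in either line, with siI1 on the higher side in Hep-G2 and on the lower side in BE(2)-C. The log2 change was 0.48 (SE 0.06, adjusted p = 6.1e-04) in Hep-G2 and -0.22 (SE 0.05, adjusted p = 0.014) in BE(2)-C, where the call was lost with an adjusted p of 0.060 without a mean-variance trend and 0.052 without siI1 replicate 1 (range 0.011 to 0.060 over all alternatives). The difference between lines, 0.70 (SE 0.07, adjusted p = 2.4e-05), had the lowest p of all members.

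**Figure D2:**
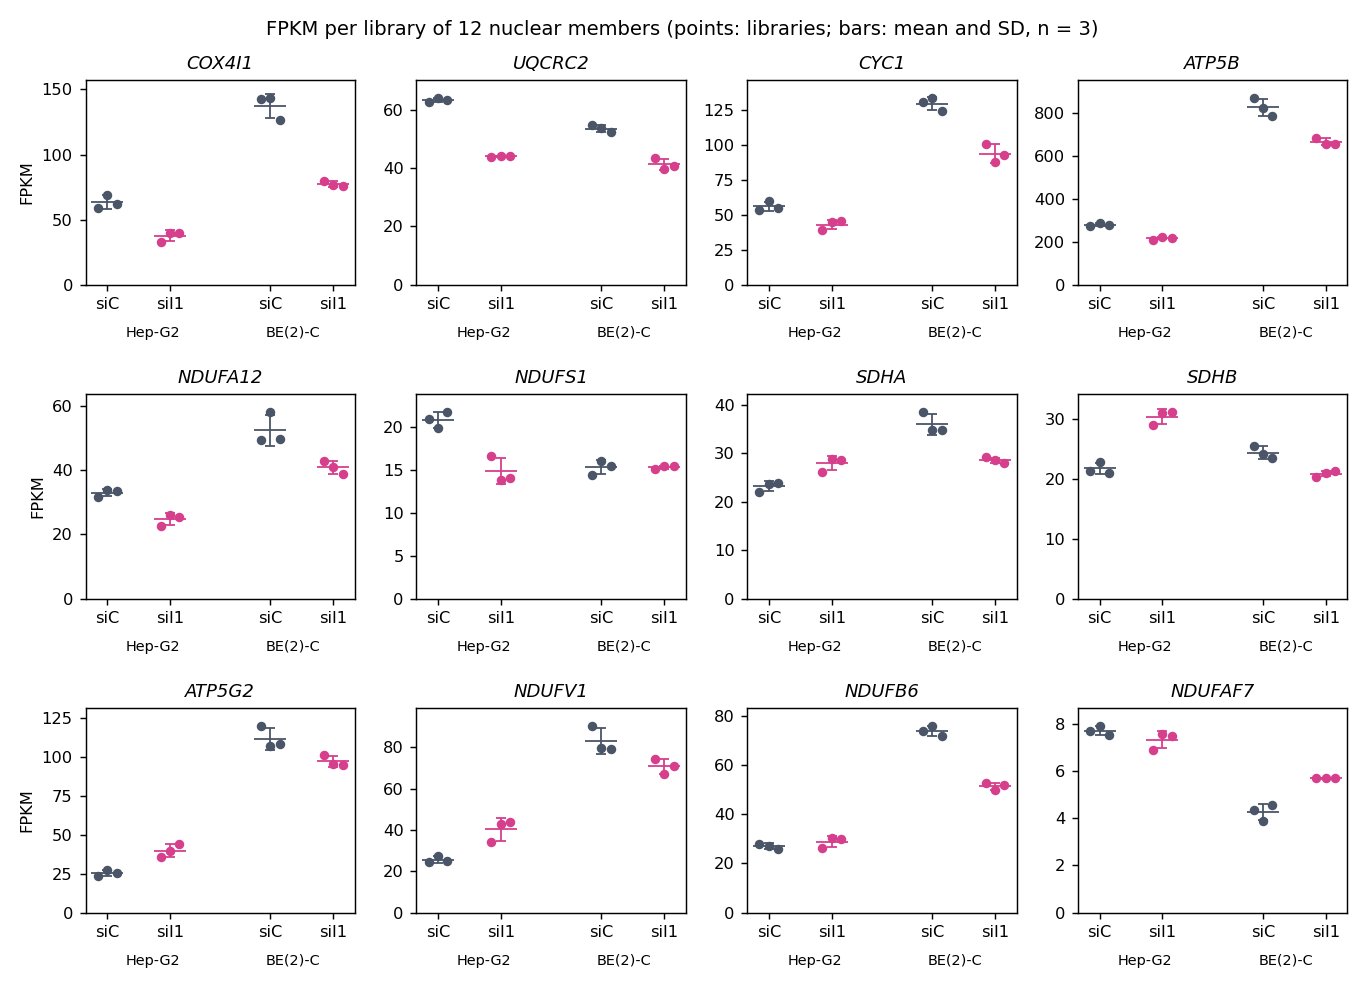
FPKM of 12 nuclear members in each library, with siC in grey and siI1 in pink, Hep-G2 on the left and BE(2)-C on the right of each panel; points are libraries and bars the mean and SD of 3. COX4I1, UQCRC2, CYC1, ATP5B and NDUFA12 are lower with siI1 in both lines, whereas SDHA, SDHB, ATP5G2 and NDUFV1 are higher with siI1 in Hep-G2 but lower with it in BE(2)-C.

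Complex III, which passes electrons from ubiquinol to cytochrome c, had 10 members. In Hep-G2 2 fell (UQCRC2 and CYC1) and 2 rose (UQCRB and UQCRQ), with a median of 0.06. Of the 10, 6 (60%) fell in BE(2)-C, with a median of -0.30. The Hep-G2 split was 3 lower and 1 higher at equal sums of FPKM (median -0.10) and 2 lower and 2 higher after median centring. UQCRC2, a core protein of the matrix side, had 62.4, 63.8 and 63.3 FPKM with siC and 43.7, 44.2 and 44.05 FPKM with siI1 in Hep-G2, and 54.6, 53.7 and 52.2 and 43.4, 39.7 and 40.7 FPKM likewise in BE(2)-C. The Hep-G2 libraries lay close together within each group, and neither line's groups overlapped. UQCRC2 fell by limma with a log2 change of -0.52 (SE 0.04, adjusted p = 1.2e-04) in Hep-G2, the lowest p of the members there, and of -0.37 (SE 0.05, adjusted p = 0.0018) in BE(2)-C. CYC1, cytochrome c1, which hands electrons to cytochrome c, had 53.6, 59.7 and 55.2 FPKM with siC and 39.2, 44.6 and 45.6 FPKM with siI1 in Hep-G2, and 131, 133 and 125 and 101, 87.7 and 93.2 FPKM likewise in BE(2)-C. All siI1 libraries lay below all siC libraries in both lines. The change was -0.38 (SE 0.08, adjusted p = 0.0062) in Hep-G2 and -0.47 (SE 0.06, adjusted p = 0.0021) in BE(2)-C. UQCRH, the hinge protein, and its retrocopy UQCRHL passed in neither line. UQCRH had 142, 158 and 145 FPKM with siC and 148, 182 and 174 FPKM with siI1 in Hep-G2, and 187, 200.6 and 180.1 and 195, 168 and 171 FPKM likewise in BE(2)-C, overlapping in both lines, with changes of 0.17 (SE 0.09, adjusted p = 0.17) and -0.09 (SE 0.07, adjusted p = 0.40). The Hep-G2 change passed with an adjusted p of 0.012 without siI1 replicate 1 (range 0.012 to 0.95 over all alternatives). UQCRHL had 2.57, 2.49 and 2.58 FPKM with siC and 2.82, 2.68 and 2.71 FPKM with siI1 in Hep-G2, and 2.30, 2.86 and 2.23 and 2.14, 1.98 and 2.28 FPKM likewise in BE(2)-C. Its groups were apart in Hep-G2 and overlapped in BE(2)-C. Reads of the copies may be exchanged, and its changes were 0.10 (SE 0.09, adjusted p = 0.41) and -0.19 (SE 0.13, adjusted p = 0.30).

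Complex IV, cytochrome c oxidase, had 12 members, among them COX7A2L, which joins complexes III and IV into supercomplexes, and NDUFA4, once assigned to complex I. In Hep-G2 6 rose (50%) and 2 fell, with a median of 0.28. Those that fell in BE(2)-C were 3 (COX4I1, COX8A and COX5B), a share of 25% near the background, with a median of -0.12. With equal sums of FPKM the split in Hep-G2 was 2 lower and 4 higher (median 0.11), and with median centring 1 lower and 7 higher. COX4I1, the common form of a regulatory subunit, showed the lowest log2 change of all members in both lines. It had 59.3, 69.3 and 62.2 FPKM with siC and 32.7, 39.8 and 40.1 FPKM with siI1 in Hep-G2, and 143, 143 and 127 and 79.8, 76.7 and 75.6 FPKM likewise in BE(2)-C. The siI1 values stayed well below siC in each line. The change was -0.76 (SE 0.10, adjusted p = 9.5e-04) in Hep-G2 and -0.83 (SE 0.06, adjusted p = 2.7e-04) in BE(2)-C, with no difference called between lines at 0.06 (SE 0.12, adjusted p = 0.71). It ranged from -0.93 to -0.67 in Hep-G2 and from -0.88 to -0.79 in BE(2)-C over all alternative settings. Its alternative form COX4I2, known from lung and low oxygen, was at 0 in all Hep-G2 libraries but siI1 replicate 2, with 0.0991 FPKM. COX4I2 in BE(2)-C had 15.2, 12.4 and 9.18 FPKM with siC and 21.8, 13.5 and 16.1 FPKM with siI1. The groups overlapped and the change of 0.48 (SE 0.22, adjusted p = 0.16) did not pass, other than with an adjusted p of 0.020 by limma voom (range 0.020 to 0.36 over all alternatives). COX7A2, the common form of subunit VIIa, had 61.3, 71.5 and 62.5 FPKM with siC and 48.7, 56.3 and 55.6 FPKM with siI1 in Hep-G2, and 139, 147 and 120.4 and 132, 115 and 115 FPKM likewise in BE(2)-C. The groups were apart in Hep-G2 and overlapped in BE(2)-C. The change was -0.28 (SE 0.08, adjusted p = 0.033) in Hep-G2 and -0.16 (SE 0.09, adjusted p = 0.23) in BE(2)-C. The Hep-G2 call was lost with an adjusted p of 0.11 after median centring, 0.057 without the filter, 0.080 without a mean-variance trend, 0.091 and 0.063 without siC replicates 2 and 3 in turn and 0.051 and 0.054 without siI1 replicates 1 and 3 in turn (range 8.9e-04 to 0.11 over all alternatives). COX7A2L had 22.9, 25.6 and 22.7 FPKM with siC and 32.3, 33.95 and 35.9 FPKM with siI1 in Hep-G2, and 26.1, 28.5 and 25.3 and 28.5, 28.2 and 28.3 FPKM likewise in BE(2)-C. It was higher in all siI1 libraries of Hep-G2 and overlapped in BE(2)-C. The change was 0.52 (SE 0.07, adjusted p = 0.0010) in Hep-G2 and 0.09 (SE 0.05, adjusted p = 0.26) in BE(2)-C.

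Other subunits of complex IV with tissue-restricted forms were read for both. COX6B1 had 123, 141 and 126 FPKM with siC and 151, 192 and 198 FPKM with siI1 in Hep-G2, and 344, 329 and 316 and 328, 281 and 288 FPKM likewise in BE(2)-C. The Hep-G2 siI1 libraries exceeded siC, and the BE(2)-C groups overlapped. It rose in Hep-G2 by 0.46 (SE 0.11, adjusted p = 0.015), and the call was lost with an adjusted p of 0.055 and 0.055 without siC replicates 1 and 3 in turn and 0.053 without siI1 replicate 2 (range 7.7e-04 to 0.055 over all alternatives). The BE(2)-C change was -0.14 (SE 0.07, adjusted p = 0.18), and it passed with an adjusted p of 0.049 without siI1 replicate 1 (range 0.049 to 0.41 over all alternatives). Its testis form COX6B2 did not exceed 0.0204 FPKM in any library. COX6A1 had 54.2, 67.9 and 57.8 FPKM with siC and 59.7, 79.7 and 80.1 FPKM with siI1 in Hep-G2, and 98.6, 86.3 and 85.2 and 84.3, 83.6 and 86.7 FPKM likewise in BE(2)-C. The groups overlapped in both lines and neither change passed, with 0.28 (SE 0.14, adjusted p = 0.14) and -0.08 (SE 0.06, adjusted p = 0.38). The Hep-G2 change passed with an adjusted p of 0.032 with the replicate block and 0.012 without siI1 replicate 1 (range 0.012 to 0.41 over all alternatives). The muscle form COX6A2 was listed at 0 in all libraries, the muscle form COX7A1 did not exceed 0.273 FPKM, and the pseudogene COX6A1P2 averaged 8.80 FPKM in Hep-G2 and 22.2 FPKM in BE(2)-C, so reads of COX6A1 may be shared with it. NDUFA4 had 38.5, 41.1 and 40.3 FPKM with siC and 43.0, 50.7 and 49.9 FPKM with siI1 in Hep-G2, and 105, 108 and 103 and 115, 104 and 104 FPKM likewise in BE(2)-C. Its siI1 libraries were all above siC in Hep-G2 and overlapped in BE(2)-C. The change was 0.26 (SE 0.07, adjusted p = 0.028) in Hep-G2 and 0.03 (SE 0.05, adjusted p = 0.74) in BE(2)-C. The Hep-G2 call was lost with an adjusted p of 0.16 at equal sums of FPKM, 0.077 without a mean-variance trend, 0.095, 0.054 and 0.076 without siC replicates 1, 2 and 3 in turn and 0.094 and 0.088 without siI1 replicates 2 and 3 in turn (range 0.0012 to 0.16 over all alternatives). Its relative NDUFA4L2, known as a hypoxia-induced gene, had 10.03, 7.95 and 8.64 FPKM with siC and 15.1, 5.80 and 8.80 FPKM with siI1 in BE(2)-C, and 0.0689, 0.0784 and 0.121 and 0.0527, 0.857 and 0.187 FPKM in Hep-G2. The groups overlapped in both lines, and neither change passed, with 0.88 (SE 0.66, adjusted p = 0.32) in Hep-G2 and 0.05 (SE 0.31, adjusted p = 0.92) in BE(2)-C.

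Complex V, ATP synthase, had 15 members, 5 of the F1 head and 10 of the membrane part and stalk. In Hep-G2 2 fell (ATP5B and ATP5G3) and 1 rose (ATP5G2), with a median of 0.17. In BE(2)-C 7 fell (46.7%; 5 after median centring), with a median of -0.17. Hep-G2 had 4 lower and 1 higher at equal sums of FPKM (median 0.01) and 2 lower and 6 higher after median centring. ATP5B, the catalytic beta subunit and the member with the most FPKM, had 272, 286 and 279 FPKM with siC and 209.8, 219.8 and 218 FPKM with siI1 in Hep-G2, and 866, 824 and 786 and 684, 655 and 655 FPKM likewise in BE(2)-C. All siI1 libraries were below all siC libraries in both lines. The change was -0.37 (SE 0.06, adjusted p = 0.0022) in Hep-G2 and -0.31 (SE 0.06, adjusted p = 0.0083) in BE(2)-C. ATP5A1, its partner in the head, passed in neither line, with 0.17 (SE 0.07, adjusted p = 0.10) and 0.02 (SE 0.05, adjusted p = 0.78). The c ring, which turns with the proton flow, is built from an identical mature peptide encoded by ATP5G1, ATP5G2 and ATP5G3. ATP5G2 had 23.8, 27.5 and 25.3 FPKM with siC and 35.6, 39.5 and 44.1 FPKM with siI1 in Hep-G2, and 119.6, 107 and 108 and 101, 95.2 and 94.8 FPKM likewise in BE(2)-C. It lay above siC in every siI1 library of Hep-G2 and below siC in every one of BE(2)-C. The change was 0.63 (SE 0.09, adjusted p = 0.0016) in Hep-G2 and -0.20 (SE 0.06, adjusted p = 0.042) in BE(2)-C, a difference of 0.83 (SE 0.11, adjusted p = 1.8e-04). The BE(2)-C call was lost with an adjusted p of 0.084 after median centring, 0.071 without the filter, 0.12 without a mean-variance trend, 0.065 and 0.060 without siC replicates 1 and 3 in turn and 0.052, 0.13 and 0.13 without siI1 replicates 1, 2 and 3 in turn (range 0.0041 to 0.13 over all alternatives). ATP5G3 fell instead in both lines. It had 54.2, 56.4 and 51.0 FPKM with siC and 39.6, 44.02 and 45.0 FPKM with siI1 in Hep-G2, and 45.6, 47.0 and 42.4 and 34.6, 34.2 and 33.0 FPKM likewise in BE(2)-C. Neither line's groups overlapped. The change was -0.33 (SE 0.07, adjusted p = 0.0075) in Hep-G2 and -0.40 (SE 0.05, adjusted p = 0.0018) in BE(2)-C. ATP5G1 had 26.0, 29.7 and 27.1 FPKM with siC and 18.3, 24.5 and 25.03 FPKM with siI1 in Hep-G2, and 78.6, 75.2 and 75.2 and 69.1, 64.8 and 61.6 FPKM likewise in BE(2)-C. The siI1 libraries lay below siC in both lines, by little in Hep-G2. Its change passed in BE(2)-C at -0.23 (SE 0.05, adjusted p = 0.018), and the call was lost with an adjusted p of 0.071 without a mean-variance trend and 0.062 and 0.064 without siI1 replicates 2 and 3 in turn (range 0.0021 to 0.071 over all alternatives). In Hep-G2 it was -0.30 (SE 0.13, adjusted p = 0.097), and it passed with an adjusted p of 0.0062 at equal sums of FPKM, 0.046 by limma voom and 0.036 with the replicate block (range 0.0062 to 0.23 over all alternatives). The c-ring genes thus moved in opposite directions in Hep-G2, ATP5G2 up and ATP5G3 down, at equal sums, after median centring and by limma voom too.

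The 10 assembly factors included the only members that rose in BE(2)-C. There 20% of the 10 rose, near the 15.7% of genes of the same level, and 30% fell, near 24.2%. Of 45 other assembly factors, 1 (2.22%) rose in BE(2)-C. In Hep-G2 2 fell (NDUFAF1 and NDUFAF4) and 2 rose (NDUFAF3 and NDUFAF8), with a median of 0.03, and in BE(2)-C 3 fell (ATP5SL, NDUFAF4 and NDUFAF8) and 2 rose, with a median of -0.14. For Hep-G2, equal sums of FPKM gave 4 lower and 2 higher (median -0.14) and median centring 1 lower and 2 higher. NDUFAF7, a methyltransferase needed to assemble complex I, had 7.71, 7.90 and 7.52 FPKM with siC and 6.91, 7.58 and 7.48 FPKM with siI1 in Hep-G2, and 4.35, 3.89 and 4.54 and 5.69, 5.70 and 5.72 FPKM likewise in BE(2)-C. The BE(2)-C siI1 libraries were nearly equal and above siC, and the Hep-G2 groups overlapped. The change was 0.41 (SE 0.08, adjusted p = 0.0078) in BE(2)-C and -0.07 (SE 0.06, adjusted p = 0.39) in Hep-G2, and the difference of Hep-G2 from BE(2)-C was -0.49 (SE 0.10, adjusted p = 0.0019). Its Hep-G2 change passed with an adjusted p of 0.016 at equal sums of FPKM (range 0.016 to 0.85 over all alternatives). NDUFAF6, an early assembly factor of complex I, had 2.96, 3.02 and 2.80 FPKM with siC and 2.84, 3.15 and 2.87 FPKM with siI1 in Hep-G2, and 2.21, 2.40 and 2.38 and 3.18, 2.89 and 2.83 FPKM likewise in BE(2)-C. Its BE(2)-C groups were apart, with siI1 higher, and the Hep-G2 groups overlapped. The change was 0.34 (SE 0.09, adjusted p = 0.033) in BE(2)-C and 0.01 (SE 0.09, adjusted p = 0.93) in Hep-G2, with a difference of -0.33 (SE 0.12, adjusted p = 0.049). The BE(2)-C call was lost with an adjusted p of 0.076 with the replicate block, 0.074, 0.059 and 0.064 without siC replicates 1, 2 and 3 in turn and 0.11, 0.078 and 0.069 without siI1 replicates 1, 2 and 3 in turn (range 0.0087 to 0.11 over all alternatives), so 1 risen member was counted there whichever library was left out. NDUFAF2, a relative of NDUFA12 that holds its place during assembly, had 29.7, 34.1 and 27.7 FPKM with siC and 22.5, 25.4 and 27.1 FPKM with siI1 in Hep-G2, and 50.6, 60.5 and 55.9 and 60.3, 60.03 and 55.7 FPKM likewise in BE(2)-C. The Hep-G2 siI1 libraries were below siC, and the BE(2)-C groups overlapped. Its Hep-G2 change of -0.29 (SE 0.10, adjusted p = 0.052) just missed the threshold, the BE(2)-C change was 0.08 (SE 0.07, adjusted p = 0.46), and the difference was -0.36 (SE 0.13, adjusted p = 0.044). The Hep-G2 change passed with an adjusted p of 0.040 with a filter at 1 FPKM, 0.0030 at equal sums of FPKM, 0.044 by limma voom, 0.046 without siC replicate 3 and 0.047 without siI1 replicate 3 (range 0.0030 to 0.16 over all alternatives).

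The change itself was compared between the lines in a fit of all 4 groups. For 37 members it differed, 33 with a higher change in Hep-G2 and 4 with a lower one, NDUFS1, NDUFAF2, NDUFAF6 and NDUFAF7. For 47 members no difference was called, and for 3928 of the 8695 genes of the same level, so members were not called more often. The 33 are 39.3% of the members, against 18.5% of the 15362 genes tested in both lines and 24% of genes of the same level. The 4 are 4.76%, against 21.7% and 30.8%. Called higher in Hep-G2 were also 37.8% of 45 other assembly factors, 32.5% of 77 mitochondrial and 38.8% of 80 cytosolic ribosomal protein genes. Called lower were 8.89%, 10.4% and 2.5% of these sets. The larger share called higher was thus not particular to the members. Of 31 genes that copy, transcribe or process mitochondrial DNA and RNA, 16.1% were called higher and 38.7% lower. The median difference of the members was 0.30, against -0.06 for genes of the same level. At equal sums of FPKM 24 members were called higher in Hep-G2 and 9 lower, with medians of 0.11 and -0.24, and after median centring 43 higher and 2 lower, so the direction held under each scaling. By complex, the difference was called higher in Hep-G2 for 14 of 33 members of complex I, 2 of 4 of complex II, 3 of 10 of complex III, 7 of 12 of complex IV, 4 of 15 of complex V and 3 of 10 assembly factors. It was called for none of the 7 members that fell in both lines, a class picked on these values for the same direction in both. The correlation of the changes between lines across the 84 members was 0.28 by Pearson and 0.23 by Spearman, against 0.20 and 0.16 across the 8695 genes of the same level. These describe the genes, which share libraries and are not independent replicates.

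**Figure D3:**
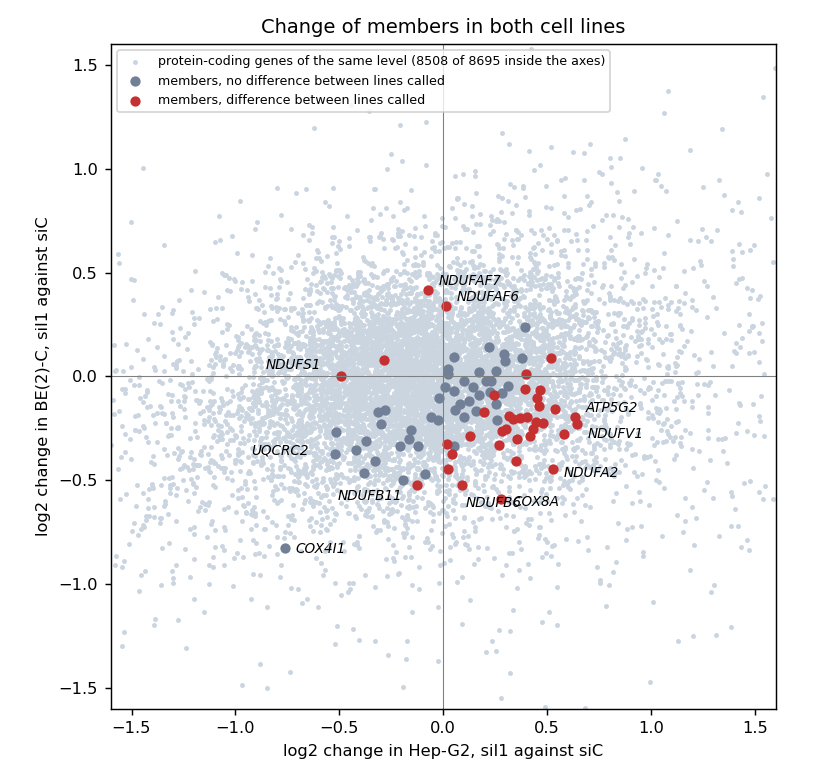
Log2 change in Hep-G2 (horizontal) against BE(2)-C (vertical), siI1 against siC on log2(FPKM + 0.1), for the 84 members (large points) and protein-coding genes of the same level (small grey points; the outermost are not drawn). Red members are the 37 whose change differed between the lines, most of them at the lower right, and COX4I1 lies apart at the lower left.

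Canonical transcripts of the members have a median of 909 nt in the current annotation, and the length classes were chosen after the values were seen. Across members, Spearman's rho of length with the log2 change was -0.09 in Hep-G2 and 0.23 for BE(2)-C, against -0.33 and 0.23 across 8685 genes of the same level. Of the 44 members under 1000 nt, 14 rose and 3 fell in Hep-G2 (10 and 10 at equal sums of FPKM), and 22 fell and 0 rose in BE(2)-C by limma, where 0 had an unadjusted p below 0.05 in the higher direction and limma voom called 1. Of the 19 members from 1000 to under 2000 nt, 3 rose and 4 fell in Hep-G2, and 1 rose and 11 fell in BE(2)-C, so 57.9% fell there, against 50% of the shortest members. Of the 21 members of 2000 nt and more, 5 rose and 3 fell in Hep-G2, and 1 rose and 4 (19%) fell in BE(2)-C. Median changes in BE(2)-C were -0.20, -0.23 and -0.02 in these classes from short to long. Among 489 other genes of the same level under 1000 nt, 42.5% rose and 12.5% fell in Hep-G2, and 10.6% rose and 36.6% fell in BE(2)-C. For all 1614 genes of the same level from 1000 to under 2000 nt these shares were 38.7% and 20.3%, and 10.3% and 33.2%. With 2000 nt or more, 19.6% of 6538 genes rose and 40.6% fell in Hep-G2, and 17.5% rose and 20.8% fell in BE(2)-C. The difference between members and other genes of a class was not tested, nor was the part of transcript length in the members' changes.

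Libraries of a group also differed. Over the members, the median log2 level relative to the siC mean of each gene was -0.02, 0.21 and 0.23 in the Hep-G2 siI1 libraries and -0.07, 0.10 and -0.03 in the siC libraries, so siI1 replicate 1 lay inside the siC range and the others above it. Members under 1000 nt had -0.01, 0.35 and 0.38 in the siI1 libraries, and the 489 other short genes had 0.08, 0.39 and 0.38, so replicate 1 was the lowest of the siI1 libraries for both. Medians over the members in BE(2)-C were -0.14, -0.23 and -0.20 in the siI1 libraries and 0.03, 0.03 and -0.06 in the siC libraries, with no overlap. The median SD of a member between libraries was 0.10 log2 units in Hep-G2 siC, 0.16 in Hep-G2 siI1, 0.08 in BE(2)-C siC and 0.07 in BE(2)-C siI1.

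**Figure D4:**
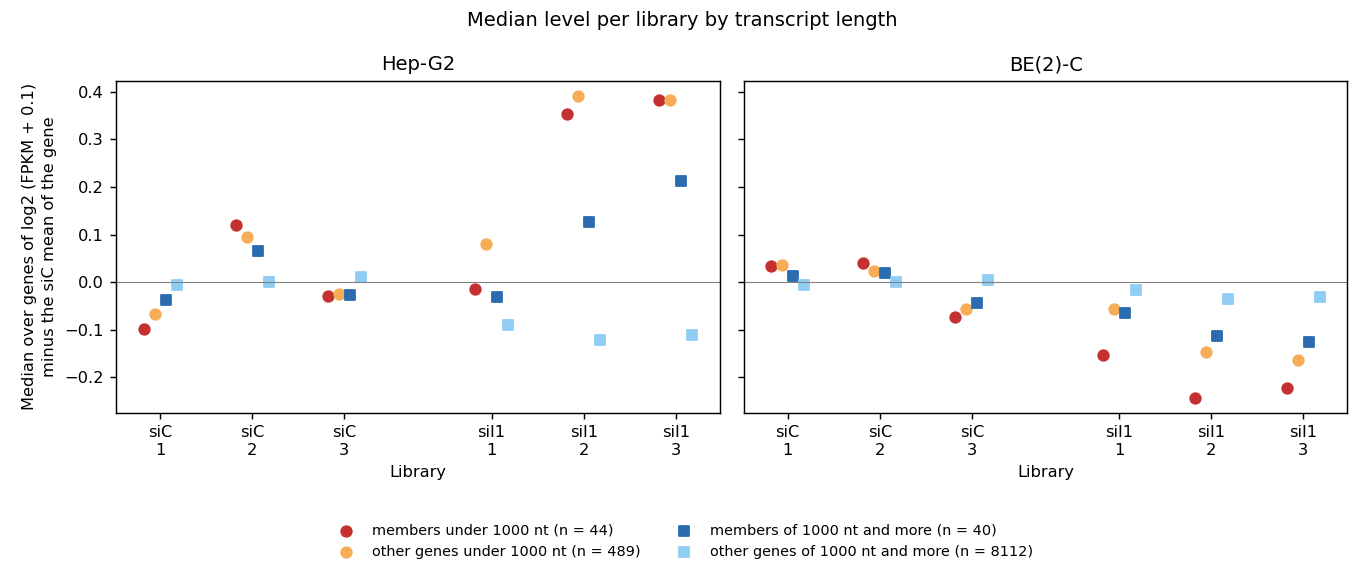
Median over genes of log2(FPKM + 0.1) minus the siC mean of each gene, in each library of Hep-G2 (left) and BE(2)-C (right), for members and other protein-coding genes of the same level with a canonical transcript under 1000 nt (circles) or of at least 1000 nt (squares). In Hep-G2 the short genes of siI1 replicates 2 and 3 lie above every siC library and those of replicate 1 do not; in BE(2)-C every siI1 point lies below every siC point of its gene set, for members and other genes.

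Other genes that serve the chain were counted from lists. Their background is that of genes of the same level, of which 35.1% fell and 24.5% rose in Hep-G2, and 24.2% fell and 15.7% rose in BE(2)-C. Of 4 genes for subunits and the electron carrier outside the naming rule, cytochrome c (CYCS) fell in both lines, with -0.59 (SE 0.07, adjusted p = 6.9e-04) in Hep-G2 and -0.41 (SE 0.06, adjusted p = 0.0026) in BE(2)-C. USMG5 rose in Hep-G2, at 0.49 (SE 0.11, adjusted p = 0.012), and had 0.03 (SE 0.08, adjusted p = 0.86) in BE(2)-C. Of 45 other assembly factors, 11 fell and 17 rose in Hep-G2 (18 fell and 6 rose at equal sums of FPKM, 7 fell and 18 rose after median centring) and 17 fell and 1 rose in BE(2)-C (12 fell and 2 rose after centring), with medians of -0.03 and -0.15. Of 77 mitochondrial ribosomal proteins, 13 fell and 15 rose in Hep-G2 (29 fell and 9 rose at equal sums), shares of 16.9% and 19.5% that do not exceed the background, and 35 fell and 2 rose in BE(2)-C (45.5% and 2.6%), with medians of 0.06 (-0.11 at equal sums) and -0.21. Of 81 cytosolic ribosomal proteins tested, 2 fell and 66 rose in Hep-G2 and 0 fell and 35 rose in BE(2)-C, with medians of 0.50 and 0.15. In BE(2)-C 2 of them had an unadjusted p below 0.05 in the lower direction, and limma voom called 2 lower. Of 31 genes that copy, transcribe or process mitochondrial DNA and RNA, 18 fell and 5 rose in Hep-G2 (14 and 5 after centring). In BE(2)-C 4 of them fell and 3 rose (3 and 5 after centring, 3 and 3 at equal sums of FPKM). TFAM, which packages mitochondrial DNA and starts its transcription, had 20.7, 19.2 and 21.2 FPKM with siC and 8.97, 7.30 and 7.89 FPKM with siI1 in Hep-G2, and 6.85, 8.72 and 8.42 and 6.14, 7.21 and 7.06 FPKM likewise in BE(2)-C. Its groups were apart in Hep-G2 and overlapped in BE(2)-C, with changes of -1.33 (SE 0.09, adjusted p = 5.0e-05) and -0.23 (SE 0.11, adjusted p = 0.17). For TFAM the BE(2)-C change passed with an adjusted p of 0.044 by limma voom, 0.049 with the replicate block and 0.038 without siC replicate 1 (range 0.038 to 0.39 over all alternatives). LRPPRC and SLIRP, which stabilize mitochondrial mRNA, fell in Hep-G2, with -0.25 (SE 0.06, adjusted p = 0.010) and -0.26 (SE 0.09, adjusted p = 0.048). In BE(2)-C SLIRP had -0.10 (SE 0.10, adjusted p = 0.49), and LRPPRC had 0.15 (SE 0.05, adjusted p = 0.067), which passed with an adjusted p of 0.027 by limma voom and 0.028 after median centring (range 0.027 to 0.18 over all alternatives), and its changes differed between lines by -0.40 (SE 0.07, adjusted p = 0.0014). The call was lost for LRPPRC with an adjusted p of 0.056 after median centring (range 0.0019 to 0.056 over all alternatives) and for SLIRP with 0.16 after median centring, 0.077 without the filter, 0.10 without a mean-variance trend, 0.052 with a pseudocount of 0.01, 0.085, 0.14 and 0.071 without siC replicates 1, 2 and 3 in turn and 0.078 and 0.10 without siI1 replicates 1 and 2 in turn (range 0.0017 to 0.16 over all alternatives). The RNA polymerase POLRMT passed in neither line, at 0.07 (SE 0.08, adjusted p = 0.52) and -0.07 (SE 0.08, adjusted p = 0.52), other than in Hep-G2 with an adjusted p of 0.037 without siI1 replicate 1 (range 0.037 to 0.95 over all alternatives).

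Of nuclear regulators of mitochondrial genes, 5 of 8 tested fell in Hep-G2 (6 at equal sums of FPKM, 4 after median centring) and 0 rose by limma, at an unadjusted p below 0.05 or by limma voom, and 3 fell and 2 rose of 10 in BE(2)-C. The coactivator PPARGC1A fell in Hep-G2, with -1.12 (SE 0.20, adjusted p = 0.0040), and its BE(2)-C change of -0.33 (SE 0.16, adjusted p = 0.18) did not pass, other than with an adjusted p of 0.046 by limma voom and 0.041 without a mean-variance trend (range 0.041 to 0.35 over all alternatives). For ESRRA the change was -0.42 (SE 0.07, adjusted p = 0.0033) in Hep-G2 and -0.04 (SE 0.07, adjusted p = 0.70) in BE(2)-C. NRF1 had 0.09 (SE 0.11, adjusted p = 0.53) and -0.47 (SE 0.09, adjusted p = 0.010), and GABPA -0.46 (SE 0.12, adjusted p = 0.021) and 0.39 (SE 0.06, adjusted p = 0.0042), in Hep-G2 and BE(2)-C. So the transcripts of these factors, whose motifs are marked in the promoters, fell in different lines, and the Hep-G2 call of GABPA was lost with an adjusted p of 0.070 and 0.068 without siC replicates 1 and 3 in turn and 0.067 and 0.066 without siI1 replicates 2 and 3 in turn (range 0.0015 to 0.070 over all alternatives). Of 13 citric acid cycle enzymes, 4 fell and 4 rose in Hep-G2, 7 fell and 1 rose at equal sums and 4 fell and 6 rose after centring, among them CS at 0.63 (SE 0.05, adjusted p = 8.3e-05) and IDH3A at -1.08 (SE 0.08, adjusted p = 7.1e-05), and 4 fell and 1 rose in BE(2)-C (2 fell and 1 rose after centring), where CS had 0.06 (SE 0.05, adjusted p = 0.46) and IDH3A -0.17 (SE 0.06, adjusted p = 0.077), and IDH3A passed with an adjusted p of 0.042 without siC replicate 1 (range 0.042 to 0.20 over all alternatives). Of 7 carriers of the mitochondrial membranes, 2 fell and 3 rose in Hep-G2 (3 fell and 1 rose at equal sums, 1 fell and 3 rose after centring) and 0 fell and 1 rose in BE(2)-C, where SLC25A6, an exchanger of ADP and ATP, rose by 0.36 (SE 0.06, adjusted p = 0.0046) and in Hep-G2 by 1.097 (SE 0.12, adjusted p = 4.3e-04), a difference of 0.74 (SE 0.14, adjusted p = 0.0017). Of these carriers in BE(2)-C, 3 had an unadjusted p below 0.05 in the lower direction and limma voom called 3 lower.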

How the data were processed

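Per the labels and the methods of the study, polyadenylated RNA was sequenced as strand-specific paired-end libraries. The authors trimmed reads with cutadapt 1.14, aligned them to hg38 with HISAT2 2.1.0, sorted them with SAMtools 1.5, counted genes with featureCounts 1.5.3 and normalized with edgeR 3.30.3. The strand setting of the counting is not given in the sources used here. The authors deposited FPKM per gene and library, in a table per cell line normalized on its own. Columns of their own comparison hold log2 fold changes, p-values and false discovery rates and were not used.

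From FPKM and gene length whole reads were recovered, within 0.01 of a whole number for 100% of values. Genes with at least 0.1 FPKM in at least 3 of the 6 libraries were tested on log2(FPKM + 0.1), a scale that understates changes of low genes, in limma 3.58.1 (R 4.3.3) with a trended prior variance and adjustment by Benjamini and Hochberg, siI1 against siC within each table. The difference between lines came from a fit of all 4 groups. The code was tested on simulated data. Mitochondrial genes were left out of tests because they were listed at 0. Positions and transcripts came from GENCODE 44, read with pandas 2.3.3, and identity from Biopython 1.88.

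Members and lists were chosen with earlier results of these data known. Genes named are the 6 members of smallest p per line and direction, the 4 per direction of the difference, paralogs, members at the minimum and regulators; the group of the same level, the length bound and genes outside these rules (ATP5A1, the mitochondrial copies and genes named in counts) were chosen after values were seen. Alternatives changed the pseudocount, filter, trend, scaling, test, threshold, block, members and libraries.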

Additional observations from a re-analysis of the deposited data

Results flagged for a closer look

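The change with siI1 differed between Hep-G2 and BE(2)-C for 37 of 84 members by the 4-group limma contrast. No difference was called for 47 members and for 3928 of 8695 genes of the same level, so members were not called more often. Called higher in Hep-G2 were 39.3% of members and 24% of genes of the same level, and called lower 4.76% and 30.8%. Given as the Hep-G2 change minus the BE(2)-C change in log2 units, the difference was 0.70 for SDHB and 0.60 for SDHA of complex II. In complex I it was 0.61 for NDUFB6, 0.87 for NDUFV1, 0.60 for NDUFS4, 0.56 for NDUFC1, 0.40 for NDUFB11 and -0.49 for NDUFS1. ATP5G2 of complex V had 0.83, and in complex IV COX6B1 had 0.61 and COX7A2L 0.43. The assembly factors NDUFAF7, NDUFAF2 and NDUFAF6 had -0.49, -0.36 and -0.33. For SDHA, SDHB, NDUFV1 and ATP5G2 the groups did not overlap in either line and lay in opposite order. Groups without overlap were common among genes of the same level, and these members were named for their small p. All these differences are at the deposited scaling. At equal sums of FPKM the median difference of the members was 0.11, against 0.30 as deposited. The Hep-G2 change of NDUFB11 was then -0.29, against -0.13 as deposited.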

How the results depend on the processing

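Results were recomputed under other pseudocounts, filters, scalings, thresholds and tests, with the replicate number as a block, for subunits only, and without each library. Added after seeing the data were members with a canonical transcript of at least 1000 nt and members with no exon shared with another gene. Both hold fewer genes, which by construction lowers counts. Elsewhere the cause of a change was not tested. Mitochondrial counts, medians and shares have no value, because all values were listed at 0. Equal sums with and without MT- genes are the same scaling for that reason.

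At equal sums of FPKM the Hep-G2 median turned to -0.003, with 19 lower and 14 higher; median centring gave 34 higher. Without a mean-variance trend 14 rose in Hep-G2 and 21 fell in BE(2)-C. At an adjusted p below 0.01, 8 rose in Hep-G2, and 20 fell and 1 rose in BE(2)-C. Among members of at least 1000 nt, 8 rose in Hep-G2, 15 fell in BE(2)-C, 15 differed between lines, and the BE(2)-C median was -0.13. Among members with no shared exon, 6 fell and 10 rose in Hep-G2, 19 fell and 0 rose in BE(2)-C, and 16 differed. Among subunits only, 0 rose in BE(2)-C.

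Leaving out each library gave 9 to 11 lower and 10 to 43 higher in Hep-G2 (43 without siI1 replicate 1; 10 without siC replicate 1, siC replicate 3 or siI1 replicate 2; 11 without siI1 replicate 3). It gave 23 to 36 lower in BE(2)-C (24 without siI1 replicate 2, 23 without siI1 replicate 3) and 1 higher whichever library was left out. Between 27 and 54 differed between lines, and medians ran from 0.13 to 0.19 in Hep-G2 and from -0.22 to -0.155 in BE(2)-C.

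Labels number replicates alike in siC and siI1, but same-numbered libraries did not deviate together (Hep-G2 correlations of 0.06, 0.04 and -0.01, those of BE(2)-C 0.02, -0.01 and -0.003), so the numbers were not taken as pairs. With the replicate block, 1 member rose in BE(2)-C, 11 fell and 32 rose in Hep-G2, 36 fell in BE(2)-C, and 43 differed between lines. For named genes, 2030 of the recomputed values stayed on their side of the threshold (values that did not pass could change sign), 108 no longer passed, 48 newly passed and 0 reversed with a call. The FPKM give gene-level reads only, so isoforms and strand were not examined.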
